A study of Xenopus tropicalis with 30 samples.

Results

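Transcription start sites were compared between 6 adult males and 6 adult females of *Xenopus tropicalis*, the western clawed frog, each profiled as a whole body. The 12 libraries are the individual animals of the start site method WTSS-seq, out of 30 libraries in the study, and the pooled females and the CAGE library of the same table were not used here. The labels give no treatment, strain, genotype or exact age for either sex. The table lists 69857 site clusters, each a stretch of neighbouring 5′ ends with 1 reference position. Leaving out the 26 clusters of 1 unplaced scaffold, which dominated some libraries, left 69831 clusters, of which 68754 had a count in at least 1 of the 12 animals. The male columns are called male 1, 3, 4a, 4b, 5 and 6, where 4a and 4b are the first and second column headed Male4. The columns headed Male3 and Male4 could not be tied to single numbered animals in the labels.

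A transcription start site is where RNA polymerase begins a transcript, and many vertebrate genes have several, from which alternative first exons and 5′ leaders follow. A whole adult frog contains all organs at once, including the gonads: the ovary holds oocytes that store maternal transcripts, and the testis holds the cells of spermatogenesis. In such bulk RNA, a different number of cells of a type and a different amount of RNA per cell cannot be told apart. The table names no genes, and no reference of its build was at hand, so sites are named by position and no gene or sequence is given.

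Outside the scaffold that was left out, the libraries held between 1379007 counts (male 4a) and 6145427 counts (male 5). That scaffold took 67.2% of the counts of female 3, 26.1% of male 4a and 15.5% of female 4, and between 1.56% and 8.71% in the other 9 libraries. Mitochondrial sites took 0.499% to 1.72% of the remaining counts in females and 1.57% to 5.32% in males. The counts of the 2 columns headed Male4 differed far beyond sampling noise, with a chi-square of 46.7 per degree of freedom over 15276 sites. They were therefore not 1 library listed 2 times, but the test does not show whether they came from different animals, and they were taken as 2 animals on the labels.

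The libraries also stood apart in sets that cut across sex. At 96 sites, 3 libraries had at least 10 CPM (counts per 1000000 counts) each and at least 10 times the level of every one of the other 9. These sites named 13 different sets of 3 libraries, and 83 of the 96 sites belonged to 4 sets that share no library and together hold all 12. Female 5, male 3 and male 4b were set apart at 32 sites. Female 3, female 4 and male 4a were set apart at 28 sites, female 2, male 1 and male 6 at 12, and female 1, female 6 and male 5 at 11. The next most frequent set had 3 sites. Each of the 4 sets thus holds both sexes. At position 118766223 on the plus strand of chromosome 6, for example, female 5 had 284.3 CPM, male 4b 123.9 and male 3 92.3, against at most 1.79 in the other 9 libraries. At position 45308864 of chromosome 7 (plus strand), male 6 had 2474.8 CPM, male 1 125.9 and female 2 62.4, against at most 2.28 elsewhere.

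The same 4 sets appeared outside those sites. Each library's deviation from the mean of its sex was taken on the log2(CPM + 1) scale over 18381 other sites. Between a male and a female of the same set, these deviations correlated with r between 0.196 and 0.364 in all 8 pairs. Between a male and a female of different sets, r lay between -0.241 and 0.0814 in 28 pairs. Within a sex, the same-set pairs female 1 and female 6, male 1 and male 6, and male 3 and male 4b had r between 0.269 and 0.280, whereas female 3 and female 4 had r = -0.180. Deviations from a mean over 6 libraries tend to correlate negatively by construction, and the 26 within-sex pairs of different sets had r between -0.465 and -0.0240 with a median of -0.215. The points are sites that share libraries and depth, so these correlations are descriptions. The labels name no batch, family or run that the sets could be matched to, and what the sets stand for was not tested. With the set as an added term, 11249 sites differed between the sexes, and 10830 sites were called with and without the term, all 10830 in the same direction.

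Male start site counts were concentrated in far fewer sites than female counts. Per animal, the 100 highest sites held 53.3% to 57.0% of the counts in males and 28.7% to 34.7% in females. The means were 55.3% ± 1.31 (SD, n = 6) in males and 31.4% ± 2.47 (SD, n = 6) in females, and the 6 animals of each sex did not overlap. This difference of 23.8 percentage points reached the smallest p that 924 splits of 6 against 6 allow (exact two-sided permutation test, p = 0.00216, adjusted p = 0.00433 over 10 measures). As few as 40 to 72 sites held 50% of the counts of a male, against 312 to 443 in a female, with means of 55.3 ± 11.4 and 394.7 ± 46.2 sites (SD, n = 6 each; exact permutation test, adjusted p = 0.00433). The effective number of sites, the exponential of the Shannon entropy of the site shares, was 621.5 ± 93.5 in males and 2956 ± 298.5 in females (SD, n = 6 each; exact permutation test, adjusted p = 0.00433). All 3 measures kept their sign in each of the 4 library sets. The sexes did not overlap in any of the 3 and each set holds both sexes, so this sign was fixed in advance. With the scaffold kept in, they did not pass: the differences, male minus female, were 18.5 percentage points (adjusted p = 0.0866), -254.5 sites (adjusted p = 0.0505) and -1669 effective sites (adjusted p = 0.0505), by the same exact permutation test. With 6 sites, the 3 highest of each sex, left out, the 100 highest held 38.2% ± 1.72 in males and 27.0% ± 3.53 in females (SD, n = 6 each), a difference of 11.2 percentage points.

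**Figure D1:**
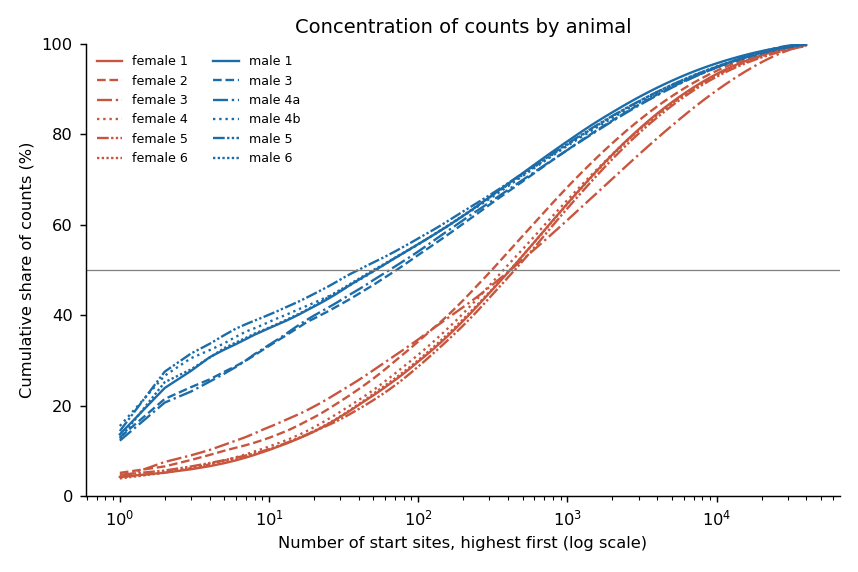
Cumulative share of counts (%) against the number of start sites taken from the highest down (log scale), 1 line per animal, with males in blue and females in red and the grey line at 50%. The 6 male lines cross 50% between 40 and 72 sites and the 6 female lines between 312 and 443 sites.

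A pair of sites stood at the top of every male. Position 61406537 on the plus strand of chromosome 5 and position 7178506 on the plus strand of chromosome 9 ranked first or second in every male. Together they held 20.7% (male 4a) to 27.5% (male 5) of a male's counts, while the 2 highest sites of a female held 5.17% to 7.56%. On the scale of trimmed mean of M-values (TMM), the chromosome 5 site lay between 153284 and 213122 CPM in males with a median of 187941. In females it lay between 3351 and 12196 CPM with a median of 3556, and female 2 alone exceeded 3872. The log2 fold change, male over female, was 5.21 (SE 0.48; edgeR quasi-likelihood test, adjusted p = 1.2e-07). The chromosome 9 site lay between 105399 and 238343 CPM in males (median 175332) and between 1204 and 4048 CPM in females (median 2236). Its log2 fold change was 6.06 (SE 0.49; edgeR, adjusted p = 4.8e-08). In neither site did the sexes overlap, yet both sites also stood among the 100 highest of every female, at ranks 3 to 17 and 10 to 67.

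The third site of males, position 105388814 on the plus strand of chromosome 7, lay between 17319 and 59861 CPM in males with a median of 51125. Its female range was 743.5 to 4337 CPM, and male 4a and female 3 were the lowest of their sexes. Females had a head of 1 site: position 39401987 on the minus strand of chromosome 2, which ranked first in 5 of 6 females and at rank 5 in female 3. It lay between 9107 (female 3) and 44000 CPM (female 2) in females with a median of 33351, and between 1962 and 3649 CPM in males with a median of 2888. Males were lower by a log2 fold change of -3.45 (SE 0.39; edgeR, adjusted p = 9.4e-07), and the site ranked 37 to 57 in them.

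The other 2 of the 3 highest female sites were not called. Position 182 of the scaffold NW_016686743.1 lay between 4436 and 9531 CPM in females and between 7029 and 10920 CPM in males. Its log2 fold change was 0.24 (SE 0.30; edgeR, adjusted p = 0.49). Position 94955325 of chromosome 3 (plus strand) had a log2 fold change of -0.89 (SE 0.41; edgeR, adjusted p = 0.061), with female values from 1668 (female 3) to 12210 CPM. Scaling by library totals alone reversed the first to -0.64 (edgeR, adjusted p = 0.035) and moved the second to -1.77 (edgeR, adjusted p = 0.00042). The chromosome 3 site was negative in all 23 alternatives and passed in 9 of them, with adjusted p from 0.00042 to 0.292. It passed without female 1 (adjusted p = 0.045), female 3 (0.0047) or female 5 (0.040) and with female 3 and male 4a both left out (0.0095). It also passed with the scaffold kept in (0.034), without the filter (0.0099), with the library set as a term (0.0499) and by DESeq2 (0.033). The first-ranked site of female 3, position 5030 of the scaffold NW_016685997.1, belonged to the library set of female 3, female 4 and male 4a. It stood at 32434 CPM in female 3, 1036 CPM in female 4, 1400 CPM in male 4a, and between 0.346 and 2.92 CPM in the other 9 animals.

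Lists of the highest sites were shared within a sex and much less between the sexes. Of the 100 highest sites, 43 were common to all 6 males and 43 to all 6 females, and 12 to all 12 animals. A pair of males shared 55 to 80 of 100, a pair of females 49 to 88, and a male and a female 16 to 29. The female pairs with female 3 shared 49 to 60, and without female 3 the other 5 females had 65 sites in common. At a depth of 1000 sites, all 6 males shared 588, all 6 females 535 and all 12 animals 202. Among the 12 sites common to every list of 100, 5 were called higher in males and 3 higher in females, where 70.6% of all 15999 tested sites were called, 33.4% for males and 37.2% for females. One of these, position 88630830 on the minus strand of chromosome 1, lay between 13172 and 21857 CPM in males and between 1812 and 4192 CPM in females.

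Across all tested sites, the order of levels agreed within a sex and hardly between the sexes. Spearman's rho over the 15999 tested sites was 0.818 to 0.922 in 15 male pairs (median 0.871) and 0.694 to 0.937 in 15 female pairs (median 0.886). It was 0.0182 to 0.176 in 36 pairs of a male and a female (median 0.101). The filter on low counts also admits sites that are high in 1 sex and near 0 in the other, so rho was taken over other sets as well. Where both sexes averaged at least 10 CPM (3980 sites), pairs of a male and a female had rho between 0.268 and 0.511, against 0.775 to 0.924 in males and 0.569 to 0.944 in females. Over 48772 sites with 25 or more counts in the 12 libraries, the ranges were 0.114 to 0.264 between the sexes, 0.637 to 0.803 in males and 0.639 to 0.849 in females.

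**Figure D2:**
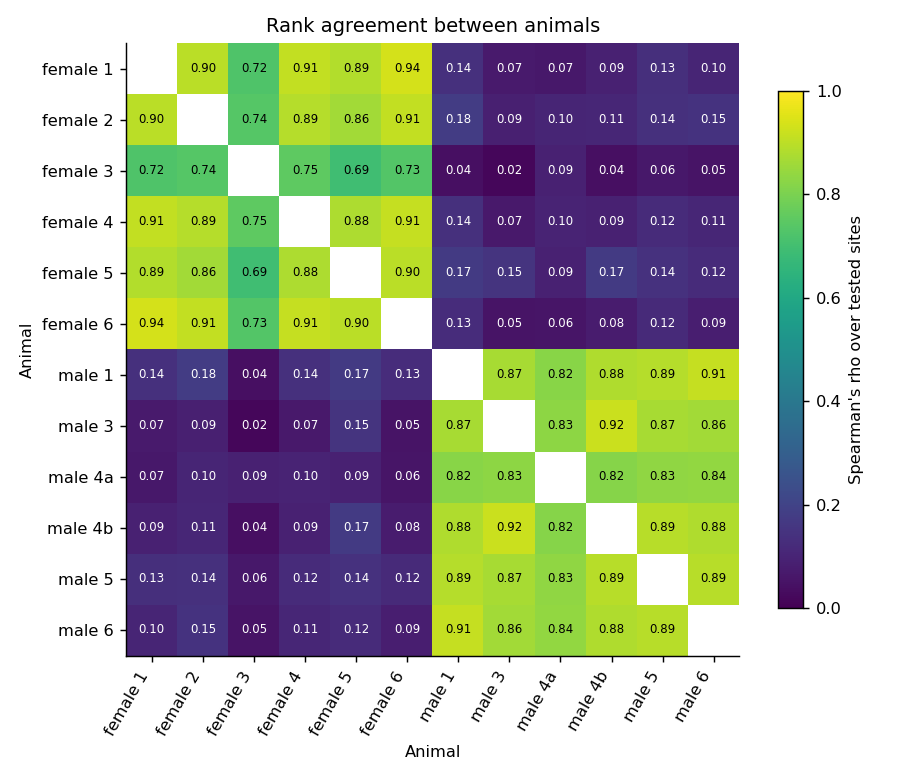
Spearman's rho of CPM over the 15999 tested sites for each pair of animals, with animals on both axes and the value printed in each cell. Same-sex cells lie between 0.694 and 0.937, cells of a male and a female between 0.0182 and 0.176, and female 3 has the lowest same-sex values.

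The detection breadth of the sexes was closer than their concentration. At the depth of the smallest library (1379007 counts), 30869 to 33005 of the 48772 sites were expected with at least 1 count in a male and 32664 to 34364 in a female. The means were 31913 ± 765.3 in males and 33402 ± 626.6 in females (SD, n = 6 each), a difference of -1489 sites (exact two-sided permutation test, adjusted p = 0.0108), and male 4b overlapped the female range. This difference did not pass without male 4a (-1078 sites; exact permutation test, adjusted p = 0.0758), with the columns headed Male4 summed (-760.9; adjusted p = 0.294) or with the scaffold kept in (-740.6; adjusted p = 0.578). The 3 highest sites of a male took 23.1% to 31.5% of its counts, and those of a female 5.93% to 9.01%. With 6 sites, the 3 highest of each sex, left out before thinning to 1057837 counts, males had 32408 ± 1040 and females 32156 ± 586.9 sites (SD, n = 6 each; exact permutation test, unadjusted p = 0.617), and the sign of the difference was reversed. Sites at 10 CPM or more numbered 5998 to 6752 in males and 7685 to 10249 in females, without overlap, and female 3 was the highest. The means were 6286 ± 267.9 and 8552 ± 874.0 (SD, n = 6 each; exact permutation test, adjusted p = 0.00433). With the 6 highest sites left out they were 7992 ± 226.0 in males and 8941 ± 683.2 in females. With the 100 highest sites left out they were 10080 ± 375.5 and 10372 ± 1160, which no longer differed beyond the spread (exact permutation test, unadjusted p = 0.803).

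Most sites were seen in both sexes. At equal depth, 44389 sites were expected in at least 1 male and 44698 in at least 1 female, and 40316 in both. All 6 males shared 16725 sites, or 37.7% of those in any male, and all 6 females shared 19770, or 44.2%. Of the 48772 sites, 983.4 were expected in all 6 males and in 0 females, and 1953 in all 6 females and in 0 males. These patterns were taken only with the highest sites kept in. With the 6 highest sites left out, the difference in sites detected was reversed, so they are no measure of a sex difference in breadth. The table lists sites by their total over 15 libraries, 9 of them of females or pooled females, so the counts here were taken over sites with 25 or more counts in the 12 animals. A count of 0 in an animal is a limit of depth and does not show that a site was unused.

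Between-animal spread did not separate the sexes, and in each sex 1 library carried much of it. Each animal's mean rho with the 5 others of its sex averaged 0.867 ± 0.0195 in males and 0.841 ± 0.0567 in females (SD, n = 6 each; exact permutation test, adjusted p = 0.373). Female 3 had 0.727, with the other females between 0.844 and 0.877, and male 4a had 0.828, with the other males between 0.870 and 0.879. Without female 3 the difference reversed to -0.0300, with females the more alike (exact permutation test, adjusted p = 0.00618). Without male 4a it was 0.0463, with males the more alike (exact permutation test, adjusted p = 0.00618). With both left out it was -0.0103 (exact permutation test, adjusted p = 0.168). The median absolute deviation of a site from the 5 others of the sex, on the log2(CPM + 1) scale, was 0.416 ± 0.0843 in males and 0.483 ± 0.208 in females (SD, n = 6 each; exact permutation test, adjusted p = 0.561). It reached 0.905 in female 3 and 0.579 in male 4a. In both measures an animal's value depends on the other animals of its sex, so values within a sex are not independent. The permutation p-values of both measures, with or without a library left out, are therefore descriptions.

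The spread of single sites followed the same libraries. Over the same 3980 sites, the median SD of log2(CPM + 1), here on the TMM scale, was 0.505 in males and 0.583 in females. Without female 3 the female median was 0.350, and without male 4a the male median was 0.414. With both left out, 671 sites had a male SD more than 2 times the female SD, and 345 the reverse. Sites with an SD of 1 or more were then 7.24% in males and 7.91% in females. Over all 15999 tested sites the order was the other way, at 7.98% in males and 5.61% in females. Biological coefficients of variation were fitted in each sex by edgeR over the 15999 tested sites. They were 0.505 in males and 0.558 in females, and 0.473 and 0.422 without male 4a and female 3.

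At the level of single sites, most of what was tested differed between the sexes. Of 15999 tested sites, 11290 were called, or 70.6% (edgeR quasi-likelihood test with Benjamini-Hochberg adjustment at 0.05). Higher in males were 5343 sites, or 33.4% of those tested, and higher in females 5947, or 37.2%. The split depends on the scaling: by library totals alone it was 4052 against 8349, and the log2 fold changes of all sites shifted by a median of -0.92. All 6 males lay above all 6 females at 4009 sites, or 25.1%, and all 6 females above all 6 males at 4178, or 26.1%. These shares are of tested sites, and the filter also admits sites that are high in 1 sex and near 0 in the other. Without the filter, 36414 of 68754 sites, or 53.0%, were called. Among the 11290 called sites, changes were large in both directions. The median log2 fold change was 3.58 for sites higher in males and -2.56 for sites higher in females. The lower sex had no count at 21 of the sites higher in males and at 391 of those higher in females. A change of at least 16-fold was fitted at 2369 sites higher in males and 1572 higher in females, and at least 64-fold at 418 and 787. With the sites that had no count in the lower sex set to a bound of 3 counts over its 6 libraries, the numbers at 16-fold were 2369 and 1565, and at 64-fold 415 and 551.

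**Figure D3:**
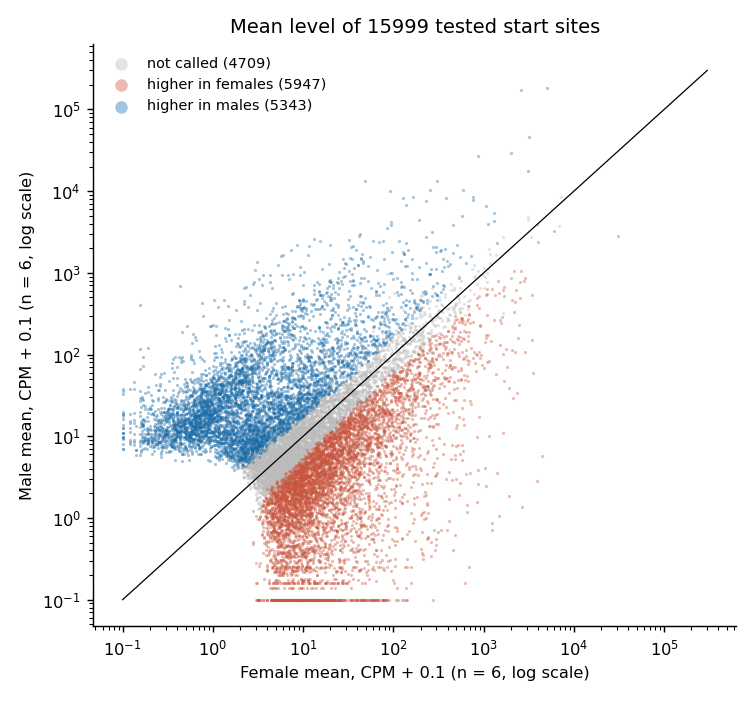
Male mean against female mean level of the 15999 tested sites in CPM on the TMM scale plus 0.1 (n = 6 animals each, both axes log scale), with sites called higher in males in blue (5343), higher in females in red (5947) and uncalled in grey (4709). The row of points along the bottom holds sites with no male count, and the line marks equal levels.

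Male calls were more frequent among high sites. Above a mean of 1000 CPM (104 sites), 54.8% were called for males and 30.8% for females, while between 3 and 10 CPM (7120 sites) it was 29.6% and 35.0%. Between 1 and 3 CPM (575 sites) it was 2.61% and 71.1%. The filter acted before TMM scaling, which raised male and lowered female CPM, so the sexes can enter the low levels unevenly. How much of this order comes from the filter and scaling was not tested. Narrow clusters were more often higher in males than wide ones. Of 2076 clusters up to 100 bases wide, males were higher at 44.7% and females at 30.2%. Of 3545 clusters wider than 400 bases, males were higher at 30.6% and females at 41.1%. Scaling by totals alone gave 38.0% and 37.8% for narrow clusters and 22.7% and 57.3% for wide ones, so the balance within each class moved with the scaling while the order of the classes stayed. The median level was 7.36 CPM in narrow and 24.3 CPM in wide clusters. Without male 4a, males were higher at 41.3% and females at 34.3% of 2816 narrow clusters.

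By chromosome, the share of tested sites higher in males ranged from 26.9% on chromosome 1 to 43.1% on chromosome 9. The share higher in females ranged from 31.2% on chromosome 10 to 42.5% on chromosome 1. Over all tested sites the shares were 33.4% and 37.2%. Of the 27 tested mitochondrial sites, 85.2% were called for males and 0 for females. Of these calls, 14 lay in 1 stretch of the minus strand, and all share the mitochondrial fraction of each library, so they are not separate results.

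The 8 most even sites that were higher in males were chosen by their small male spread among 586 sites with at least 100 CPM in males and a log2 fold change of at least 3. Their choice by level and fold makes the direction a given. The most even was position 51864918 on the minus strand of chromosome 8, with male values from 247.7 to 299.8 CPM (median 272.5) and female values from 4.56 to 12.1 CPM (median 7.86). Position 156970371 on the plus strand of chromosome 2 lay between 457.0 and 604.0 CPM in males and between 6.42 and 35.6 CPM in females. Position 109294925 on the minus strand of chromosome 7, a cluster 1317 bases wide, lay between 673.1 and 899.0 CPM in males and between 14.0 and 45.0 CPM in females. Position 38862741 on the plus strand of chromosome 4 lay between 867.7 and 1135 CPM in males and between 15.5 and 36.2 CPM in females. The other 4, on chromosomes 1, 2, 5 and 6, had male means from 173.3 to 498.1 CPM and female means from 8.48 to 48.5 CPM. At all 8 sites the lowest male lay above the highest female, which their choice by fold and small spread favours. Over all tested sites this held at 25.1%.

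The 8 most even sites of females were chosen likewise from 338. Position 79082734 on the minus strand of chromosome 1 varied least of all, from 709.6 to 823.7 CPM in females (median 761.1), and lay between 59.0 and 124.6 CPM in males (median 92.1). Position 93002483 on the plus strand of chromosome 5 lay between 773.9 and 1043 CPM in females and between 0.973 and 6.45 CPM in males. Male counts were all but absent at 2 of the 8. Position 124302070 on the minus strand of chromosome 1 had 3239 counts in females, from 112.4 to 153.4 CPM, and 1 count in males, which was in male 4a. The pooled female to male ratio was 2100, with an exact 95% counting interval from 376.7 to 82987. Position 104601115 on the plus strand of chromosome 7 had 2490 counts in females, from 89.9 to 126.3 CPM, and 0 in males, and was at least 538.2-fold lower in males by a floor of 3 counts over the 6 libraries. These sites cover chromosomes 1, 4, 5 and 7 and 1 unplaced scaffold. Female 3 lay within the range of the other females at 5 of the 8.

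**Figure D4:**
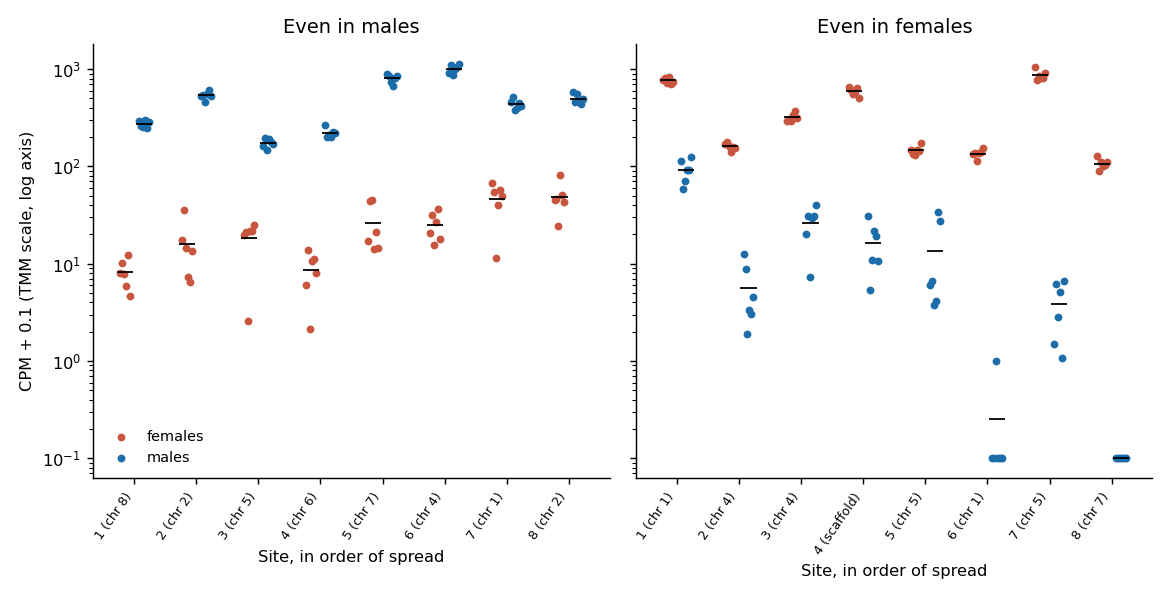
Level of each of the 16 most even sites in each animal, in CPM on the TMM scale plus 0.1 (log axis), with 6 females in red and 6 males in blue and a black line at the mean. At each site the sexes do not overlap, which the choice of the sites favours, and 2 of the female sites have 1 and 0 counts in all males together.

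Some sites varied between animals of a sex by as much as others did between the sexes. These were chosen for their spread, so their values, in CPM on the TMM scale, are a description. Among these tested sites, the widest in both sexes was position 89158342 on the plus strand of chromosome 8. It stood at 464.9 CPM in female 2, 2230 in female 3, 213.2 in female 4, 376.3 in male 1, 704.5 in male 4a and 1318 in male 6, and at 8.76 CPM or less in the other 6 animals. Its SD of log2(CPM + 1) in females was 4.43. Position 5030 of NW_016685997.1, which was not tested, had a larger one of 6.07. Position 809078 of the scaffold NW_016683377.1 was again high in females 2, 3 and 4, at 1832 to 5055 CPM, and at 0.378 CPM in female 5. In males it was at 0 in male 3, 0.724 CPM in male 4b and 31.6 to 376.3 CPM in the others. Both sites were high in the libraries of 2 of the 4 sets and lowest in the set of female 5, male 3 and male 4b. Position 57618181 on the plus strand of chromosome 2 had 2281 CPM in female 3, 369.8 in female 4 and 551.3 in male 4a, and at most 15.2 CPM in the other 9. Position 45340870 on the minus strand of chromosome 7 ran across the sets: it stood at 491.4 CPM in male 1, 393.9 in male 4b and 810.3 in male 6, and at 2.19 CPM or less in the other 3 males. On-and-off sites were counted among tested sites only. Of 2819 tested sites with at least 50 CPM in 2 or more males, 11 had 0 counts in 2 or more other males. Of 2488 such sites in females, 3 had 0 counts in 2 or more other females. The filter had already removed sites with counts in only a few libraries, so these numbers do not show how rare such sites are. Position 118766223 of chromosome 6, at 92.3 CPM in male 3, 123.9 in male 4b and 0 in males 4a and 6 by library totals, is not among them. The median width of these 14 sites was 97 bases, against 251 bases over all tested sites.

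Sites whose sex difference was bounded near 0 were few. None had a 95% interval of the log2 fold change within 0.5 of 0. That depends on the width of the intervals as well as on the differences, so it does not show that all sites differ. An interval within 1 of 0, a range set after that result, held 780 sites, or 4.88% of those tested, and 0 of these 780 were called. Another 3929 uncalled sites had wider intervals, so their sexes were not shown to be alike. The 6 highest of the 780 had log2 fold changes between -0.21 and 0.26. One of these was position 89454648 on the plus strand of chromosome 6, with 1370 ± 205.5 CPM in females and 1640 ± 382.7 CPM in males (SD, n = 6 each) and an interval from -0.29 to 0.81. Position 32718978 on the plus strand of chromosome 9 had 4009 ± 1264 CPM in females and 3872 ± 1252 CPM in males (SD, n = 6 each). Scaling by library totals alone gave log2 fold changes of -0.65 and -0.96 at these 2 sites (edgeR, adjusted p = 0.016 and 0.0045). All 6 of the highest were called under that scaling (edgeR, adjusted p from 0.0023 to 0.035), so their place among uncalled sites depends on TMM scaling.

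Called sites on the same stretch of the genome moved mostly together. Sites of a strand were joined into a run where the gap to the next was at most 2000 bases, and a run need not match a gene. Of 1401 runs with 2 or more called sites, 624 had all called sites higher in males, 670 all higher in females, and 107 had sites in both directions. Over all tested sites, 33.4% were called higher in males and 37.2% higher in females. How many runs would hold both directions without regard to position was not tested. The run with the most called sites lay at chr9:58906921-58949818 on the plus strand. Its 27 called sites were all higher in males and summed to 1075 CPM in males and 28.4 CPM in females. This and the following sums cover called sites only, and the number of sites tested in each run is not given here. A neighbouring run at chr9:58872718-58897814 on the same strand had 11, summing to 348.2 and 10.9 CPM. A run at chr4:38861797-38874670 on the plus strand had 15, summing to 2051 CPM in males and 69.7 CPM in females, and includes the even site at position 38862741. On the female side, the run with the most called sites lay at chr4:109351166-109362462 on the plus strand. Its 13 called sites summed to 159.0 CPM in females and 35.1 CPM in males. Runs at chr4:13627289-13638104 and chr4:29567945-29579692 on the same strand had 11 called sites each. The former summed to 254.5 CPM in females and 8.95 CPM in males, and the latter to 234.1 and 0.589 CPM. Males also had a larger share of their counts in runs of 2 or more listed sites, at 76.7% ± 1.06 against 57.6% ± 0.473 in females (SD, n = 6 each; exact permutation test, adjusted p = 0.00433). This difference of 19.1 percentage points was 9.55 points with runs joined at gaps of 500 bases and 8.16 points at 5000 bases. With the 6 highest sites left out the shares were 68.5% ± 2.47 and 59.6% ± 0.923. It did not pass with the 100 highest sites left out (3.85 points; exact permutation test, adjusted p = 0.0693) or with the scaffold kept in (15.0 points; adjusted p = 0.0505).

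Within some runs, the sexes differed in the shares of the start sites. Of 2145 tested runs, 559 were called, or 26.1% (edgeR diffSpliceDGE, F test per run, Benjamini-Hochberg adjustment at 0.05). In 105 of the 559, sites of the run were called in opposite directions. The largest difference in a site's share had a median of 24.5 percentage points in the called runs, against 9.64 points over all tested runs, and was 50 points or more in 69 called runs. The sexes did not overlap in that share in 312 of the called and 390 of the tested runs. The more upstream of the 2 highest sites was favoured by males in 238 and by females in 321 of the called runs, and over all 2145 tested runs by males in 1014 and by females in 1131. Over 1333 runs, the mean share of the upstream site per animal was 54.2% ± 1.15 in males and 56.1% ± 2.54 in females (SD, n = 6 each; exact permutation test, adjusted p = 0.176). Female 3 (51.3%) and male 4a (52.0%) were the lowest of their sexes. They are in the same library set, but female 4 of that set had 56.4%. Without female 3 the difference was -2.37 percentage points (exact permutation test, adjusted p = 0.00618).

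The 8 runs with the largest difference in share were taken from 470 called runs with at least 20 counts in both sexes. The sexes did not overlap in any of the 8, which their choice by difference favours, and in 312 of all 559 called runs. On the minus strand of chromosome 8, the site at position 52867994 held 100% of the counts of a run of 2 sites in every male and 0% to 2.86% in females, who used the site 2565 bases upstream. There the male level of 10.8 CPM rested on 28.5 counts per male. In a run of 2 sites on the minus strand of chromosome 2, the downstream site at position 77244156 held 86.5% to 94.2% of the counts in males and 4.87% to 10.4% in females. Both sexes used this run well, with 216.2 counts per male and 1950 per female, and the upstream site 1740 bases away stood at 521.9 CPM in females and 7.69 CPM in males. The downstream site itself was at 75.9 CPM in males and 44.1 CPM in females.

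Position 59094157 on the plus strand of chromosome 8 held 99.1% to 100% of its run in males and 2.47% to 18.8% in females, who mostly used the site 631 bases upstream. In the run of position 72947300 on the plus strand of chromosome 6, the named site is the one that females used. It held 70.6% to 85.5% of the counts in females and 0.531% to 1.71% in males, who used the site 2223 bases downstream at 179.4 CPM. In the other 4 runs, on chromosomes 3 and 4 and 2 unplaced scaffolds, the named site held a mean of 93.5% to 96.9% in males and 0.0371% to 14.8% in females. In 7 of the 8 runs males favoured the more downstream of the compared pair and females the more upstream one, and the exception was the run on chromosome 3. These 8 are chosen runs and do not stand for the rest. Over all 2145 tested runs the more upstream site was favoured by males in 1014 and by females in 1131.

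**Figure D5:**
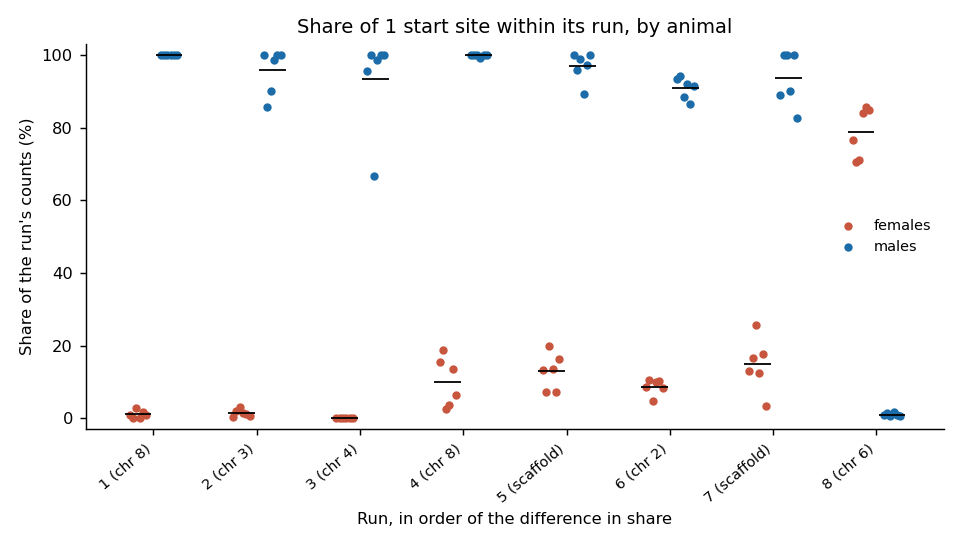
Share (%) of 1 named start site in the counts of its run, in each animal, for the 8 called runs with the largest difference, with females in red, males in blue and a black line at the mean. Males lie between 66.7% and 100% in the first 7 runs and between 0.531% and 1.71% in the last, and the sexes do not overlap in any run.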

How the data were processed

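The authors deposited whole-number counts per start site cluster and library, per the file headers, with a total per site that is 25 or more. Per the labels' protocols, WTSS-seq libraries were made from total RNA after depletion of ribosomal RNA, with size selection and PCR. The aligner, clustering step and genome build were not given in the sources used here. Positions were shifted by 1 to count from 1. Groups came from the labels, which name separate animals, and the error is the spread between animals. The table has 15 library columns, of which the 3 of pooled females and CAGE were not used, and 0 columns belonged to no labelled sample.

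Members, lists and tests were chosen with earlier results of these data known. Counts were tested with edgeR 4.0.16 (R 4.3.3) using TMM scaling, the filterByExpr filter by sex, quasi-likelihood F tests and Benjamini-Hochberg adjustment at 0.05 over all sites; an SE is the log2 fold change divided by the square root of F. DESeq2 1.42.0 was an alternative. Values per animal were compared by exact two-sided permutation tests over 924 splits (scipy 1.17.1), adjusted over 10 measures. Detection at equal depth used the hypergeometric expectation. Counting intervals are at 95% and cover counting error only, as reads carry no molecular identifiers. The upstream share adds 0.5 to counts of sites with a mean of 20 or more.

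Named sites are, by rule, each animal's first-ranked site and the 3 highest per sex, the 8 most even called sites in each direction (100 CPM or more, log2 fold change of 3 or more), the 5 most variable per sex (50 CPM or more), the 6 highest with a bounded difference, and the 8 runs with the largest difference in share. Sites shown for the library sets, for lists shared by all animals and for the largest runs, and the library sets themselves, were chosen after values were seen. Replicate numbers 1, 5 and 6 occur in both sexes but name different animals, so no block was used. Both edgeR tests were tried on simulated counts with female means, 1 fixed dispersion, no library sets and few altered sites or runs. The data here differ from that setting, since most tested sites were called, so the simulation does not vouch for these calls. For the per-animal measures, only the formula for detection at equal depth and the permutation test were checked on made-up values.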

Additional observations from a re-analysis of the deposited data

Results flagged for a closer look

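A sample was singled out where its gap to the nearest other animal of its sex was large against the range of the 6 by Dixon's 95% criterion. This occurred in 25 of 84 groups of values, and chance flags about 1 in 20. None of the causes was tested.

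Female 3 was far from the other females in 10249 sites at 10 CPM or more, a mean rank correlation of 0.727, a deviation of 0.905, 67.2% of counts on the scaffold left out and 13.5% on the other unplaced scaffolds. It was also apart at 32434 CPM at position 5030 of NW_016685997.1, 743.5 CPM at position 105388814 of chromosome 7, 400.2 CPM at position 114613955 of chromosome 7, and shares of 0.198% at position 35846194 of chromosome 4 and 4.87% at position 77244156 of chromosome 2.

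Male 4a, which has the fewest counts, was far from the other males in its rank correlation (0.828), deviation (0.579), upstream share (52.0%) and count-weighted cluster width (422.7 bases). It was also apart in 26.1% of counts on the scaffold left out, 5.32% mitochondrial counts, 1400 CPM at position 5030 of NW_016685997.1 and a share of 66.7% at position 35846194 of chromosome 4.

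Female 2 stood apart with an effective number of 2383 sites and with 12196 CPM at position 61406537 of chromosome 5. Male 1 stood apart with 267.5 CPM at position 20333321 and 2380 CPM at position 89454648 of chromosome 6, and female 4 with 1777 CPM at the latter. Male 4b stood apart with shares of 99.1% at position 59094157 of chromosome 8 and 89.1% at position 244 of NW_016683721.1. At the former all other males were at 100%, so any lower value would have been flagged. At the latter the other males were between 95.9% and 100%.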

How the results depend on the processing

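With the scaffold kept in, the sex differences (male minus female) no longer passed in sites detected (-740.6), sites at 10 CPM or more (-1570), the share of the 100 highest (18.5 points), sites holding 50% (-254.5), effective number (-1669) and the share in runs (15.0 points), and the count-weighted cluster width (main value -20.3 bases) reversed to 49.4. Sites detected also lost the call with the columns headed Male4 summed (-760.9), without male 4a (-1078) and with female 3 and male 4a both left out (-1214), and reversed with the 6 (251.4) or 100 highest sites left out (974.5). With the 100 highest left out, sites at 10 CPM or more (-292.5) and the share in runs (3.85 points) lost theirs. These settings on the highest sites, both libraries left out and the library sets were chosen after seeing the data. Rank correlation (main value 0.0266) passed at 0.0520 with Male4 summed and reversed to -0.0103 with both left out; deviation (main value -0.0663) reversed to 0.0176 there. Upstream share passed with both left out (-2.06). Width passed without mitochondrial sites (-42.8), with Male4 summed (-25.6) and with both left out (-29.3), and reversed to 58.9 and 14.0 without the 6 and 100 highest. The cause of none of these was tested.

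Leaving out 1 animal at a time gave -1707 to -1078 sites detected, -0.0300 to 0.0463 in rank correlation, -0.117 to 0.0548 in deviation, -2.37 to -1.05 points in upstream share and -28.2 to -17.6 bases in width. Calls between the sexes ranged from 11421 to 13474 (5192 to 6674 higher in males, 5741 to 7010 higher in females), and switching runs from 524 to 762. Without the filter 36414 of 68754 sites were called (16010 and 20404), with DESeq2 5621 and 6194, and with a fold minimum of 2 4389 and 4520. Switching runs numbered 238 of 1244 at gaps of 500 bases, 916 of 2738 at 5000 bases, and 327 of 1333 at a mean of 20 or more counts. The numbers shared by both sexes did not pair the animals: deviations correlated at 0.103, -0.201 and -0.0394. In libraries 1, 5 and 6, a replicate block gave 5895 and 5548 calls against 6485 and 6538 unblocked, and 574 against 764 switching runs. The 22 sites named as highest or most even kept their sign in 504 of 506 recomputed values. The even sites among them were chosen by a log2 fold change of at least 3 in these data, so their kept sign was largely given. Both exceptions were position 182 of NW_016686743.1. By library totals alone it reversed to -0.64, as did positions 89454648 of chromosome 6 (-0.65) and 154146843 of chromosome 1 (-0.75). A site with 0 to 3 counts in a sex gives only a bound or a wide counting interval.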
